A study of Mus musculus with 6 samples.

Results

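Natriuretic peptides are hormones that the heart muscle makes from longer precursors, and they promote salt and water loss, relax blood vessels and restrain growth of the heart. *Nppa* encodes the precursor of atrial natriuretic peptide, *Nppb* that of B-type natriuretic peptide and *Nppc* that of C-type natriuretic peptide. The membrane protease Corin and the proprotein convertase Furin cut the precursors. The receptors encoded by *Npr1* and *Npr2* make cyclic GMP when a peptide binds, *Npr1* preferring the atrial and B-type peptides and *Npr2* the C-type peptide, whereas the product of *Npr3* binds the peptides and clears them. Both *Nppa* and *Nppb* are expressed in the fetal ventricle and are widely used as markers of immature or stressed cardiomyocytes (CMs). These 8 genes were taken by symbol, and 7 of them were among the 20066 genes of the deposited RNA-seq table. *Nppc* was not analysed here.

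The RNA came from primary CMs of newborn C57BL/6 mice (postnatal day 0 to 1). For 96 h the cultures had received either a form of α-ketoglutarate (αKG) that enters cells or the solvent dimethylsulfoxide (DMSO). αKG is an intermediate of the Krebs cycle and a cosubstrate of many demethylases. No genetic change is named in the labels, which give 3 libraries per group and 100 µM αKG, while the methods of the study give another concentration. The question was which transcripts αKG changes in CMs. The methods say of neonatal CM experiments, in their section on imaging, that a sample is 1 preparation of cells from several pooled hearts. Whether this holds for the RNA libraries is not said in the labels, and p-values measure the spread between these libraries.

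Values are read counts that the authors divided by a factor per library and rounded, called normalized counts below, and the estimated depth was 3726069 to 4427187 reads in genes per library. αKG replicate 3 stood apart from its group: over all genes its log2 values correlated at 0.977 to 0.980 with the DMSO libraries and at 0.962 and 0.963 with the other αKG libraries. Where a named gene or a list changes its call without this library, that value is given too. CM markers were abundant, with a sum over 10 genes of 73094 to 75809 normalized counts in the DMSO libraries and 78010 to 109036 in αKG, most of it from the titin gene *Ttn*. Markers of other heart cells were present too, and their values stand beside the receptors. In such bulk samples, fewer cells of a type and less RNA per cell cannot be told apart.

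*Nppb* rose in αKG, and it was the only 1 of the 7 genes to pass the test. It was higher in every αKG library, αKG replicate 3 included, whereas *Nppa* and the receptor genes *Npr2* and *Npr3* were higher in αKG replicates 1 and 2 only, with αKG replicate 3 within or below the DMSO range. The share of all genes called at an adjusted p under 0.05 (limma on log2(value + 1), Benjamini-Hochberg) was 3.78%, made up of 2.83% higher and 0.952% lower in αKG. The groups did not overlap in 2 of the 7 genes, *Nppb* above and *Corin* below DMSO, where they did not overlap in 28.3% of all genes (13.7% above and 14.6% below DMSO). With no adjustment 4 of the 7 genes had a p under 0.05, against 28.1% of all genes. Without αKG replicate 3, 5 of the 7 genes passed, namely *Nppa*, *Nppb*, *Npr1*, *Npr2* and *Npr3*, in a fit that called 37.2% of all genes (19.3% higher and 17.9% lower).

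**Figure D1:**
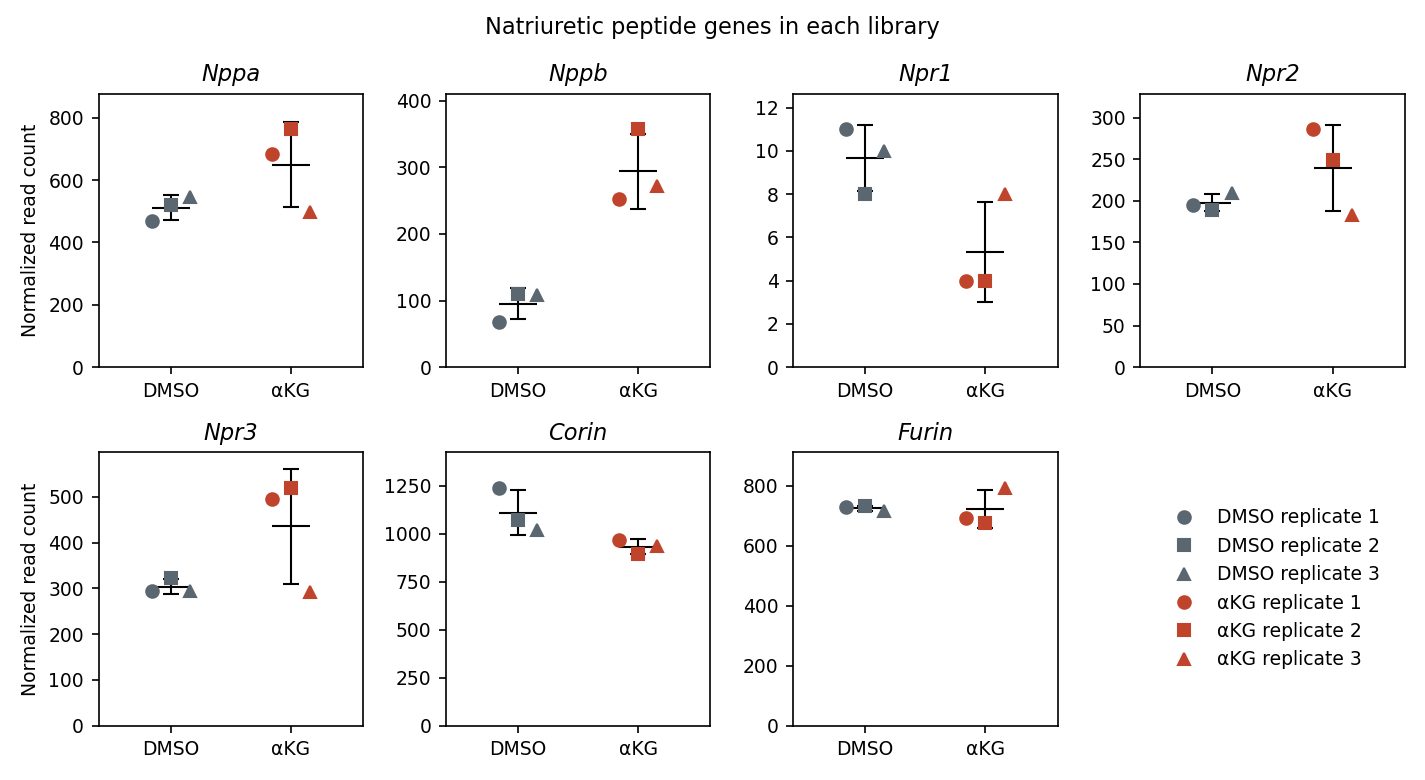
Normalized read counts (vertical axes, from 0) of the 7 listed genes in the 3 DMSO and 3 αKG libraries, 1 panel per gene. Points are libraries, horizontal bars group means and error bars SD (n = 3). *Nppb* lies at 68 to 110 in DMSO and 252 to 357 in αKG, while αKG replicate 3 falls within or next to the DMSO points for *Nppa*, *Npr2* and *Npr3*.

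*Nppb* (ENSMUSG00000029019) lies on the plus strand of chromosome 4 at 147985788 to 147987205 (GRCm38). It had 68, 110 and 108 normalized counts in DMSO replicates 1 to 3. In αKG replicates 1 to 3 it had 252, 357 and 272. The lowest αKG library was above the highest DMSO library, and DMSO replicate 1 was the lowest of all. The group means were 95.33 ± 23.7 and 293.7 ± 55.8 (SD, n = 3 each), a 3.08-fold difference. On the log2(value + 1) scale the change was 1.63 ± 0.20 (SE, limma adjusted p = 0.0071). These values rest on an estimated 70 to 119 reads per library in DMSO and 234 to 319 in αKG. The call was lost when DMSO replicate 2, DMSO replicate 3, αKG replicate 1 or αKG replicate 2 was left out, with limma adjusted p of 0.123, 0.0961, 0.203 and 0.255, while the change stayed between 1.48 and 1.75 in these fits. It was also lost in limma without the variance trend (adjusted p = 0.104) and with DMSO replicates 2 and 3 averaged (limma adjusted p = 0.0587), and kept without αKG replicate 3 (1.68 ± 0.25, limma adjusted p = 0.00402).

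The position of *Nppb* among other genes was read library by library. The pool was the 8295 genes whose mean over all 6 libraries reached 100 normalized counts. *Nppb*, at a mean of 95.33 in DMSO, reached 100 only through its αKG values, so these ranks are a description and no test. In αKG replicate 1, 90 genes were at least as far above their own DMSO mean as *Nppb* was above its own. The numbers were 25 in αKG replicate 2 and 12 in αKG replicate 3, *Nppb* counted each time. αKG replicate 3, with the smallest number, was also the αKG library closest to DMSO over all genes. The difference from the DMSO mean was 1.43, 1.93 and 1.54 on the log2 scale in αKG replicates 1 to 3. The value in αKG replicate 3, 272, lay between those of αKG replicates 1 and 2. In that library the summed markers of CMs, atrial CMs, ventricular CMs and fibroblasts differed from their DMSO means by 0.06, 0.08, -0.05 and -0.03 on the log2 scale. Those of smooth muscle and pericytes were at 0.21, of endothelium at -0.57 and of macrophages, from low counts, at -0.63. The epicardial sum was at -0.04, but most of it came from *Tbx18*, and the median of the 9 epicardial markers was -0.55. The part of these cells in the *Nppb* level was not tested.

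*Nppa* (ENSMUSG00000041616, chromosome 4, 148000722 to 148002079, plus strand) lies downstream of *Nppb*, with 13516 bases between them. It had 469, 521 and 545 normalized counts in the DMSO libraries and 685, 763 and 498 in αKG. αKG replicates 1 and 2 were above every DMSO library and αKG replicate 3 lay within the DMSO range. The means were 511.7 ± 38.9 and 648.7 ± 136 (SD, n = 3 each), a log2 change of 0.32 ± 0.14 that did not pass (limma adjusted p = 0.173, unadjusted p = 0.0476). Without αKG replicate 3 it was 0.50 ± 0.08 (limma adjusted p = 0.00533; 0.00533 to 0.509 over the 15 alternatives).

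Whether the peptide genes differed by unequal amounts was tested on their difference within each library. The log2 level of *Nppb* minus that of *Nppa* was -2.44 ± 0.29 in DMSO and -1.13 ± 0.29 in αKG (SD, n = 3 each), a shift of 1.31 with no overlap (exact permutation p = 0.10, two-sided, the smallest that 3 against 3 libraries can give). Per kilobase of exon, *Nppa* was 6.23, 4.28 and 4.56 times as high as *Nppb* in DMSO replicates 1 to 3. This ratio was 2.45, 1.93 and 1.65 in αKG replicates 1 to 3, all below the DMSO values, and here αKG replicate 3 had the lowest ratio of the 6 libraries.

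Part of *Nppa* overlaps a gene on the opposite strand. *Gm13054*, an antisense gene, shares 532 of the 865 exon bases of *Nppa* (61.5%), and the counting, which left out reads that fall in several genes, was not stated to use strand. The levels of *Nppa*, per length in particular, and of *Gm13054* are therefore uncertain. *Gm13054* had 22, 15 and 12 normalized counts in the DMSO libraries and 38, 43 and 15 in αKG. As for *Nppa*, αKG replicates 1 and 2 were above the DMSO libraries and αKG replicate 3 was within their range (log2 change 0.84 ± 0.41, limma adjusted p = 0.214; 1.30 ± 0.28 and 0.0148 without αKG replicate 3).

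**Figure D2:**
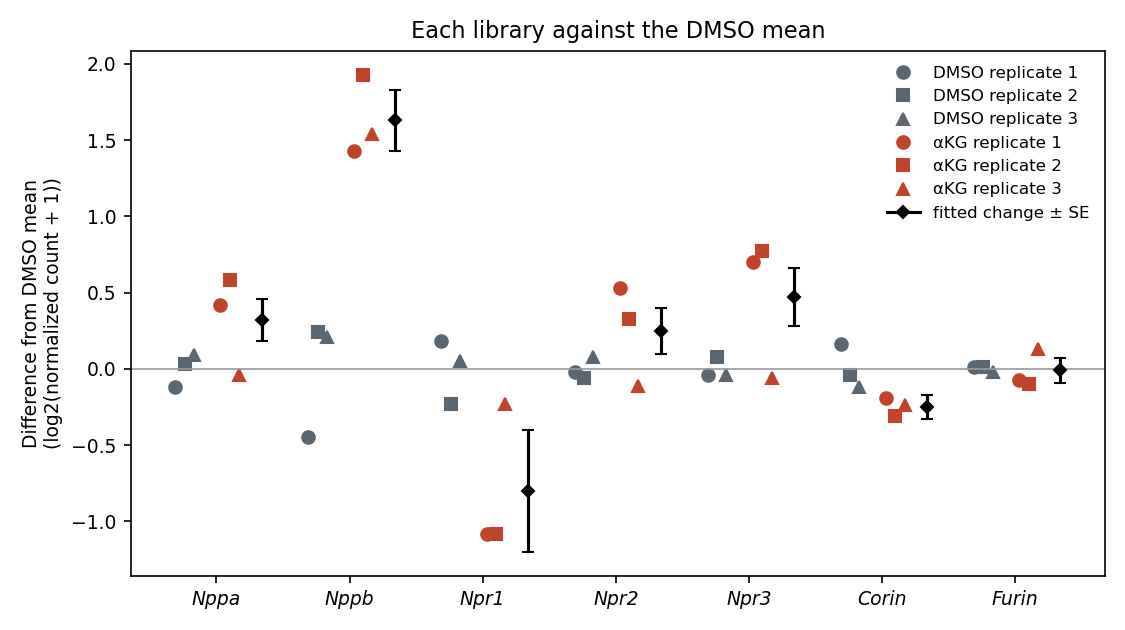
Difference of each library from the DMSO mean of the gene, in log2(normalized count + 1), for the 7 listed genes. Grey points are DMSO libraries, red points αKG libraries (3 each), and black diamonds the fitted change with its SE. *Nppb* is at 1.43 to 1.93 in the αKG libraries, and *Npr3* at 0.70, 0.77 and -0.06 in αKG replicates 1 to 3.

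The starts of the peptide genes are shown because these neighbours, which share known cardiac regulators, differed between libraries in unlike ways. The sequences are those of RefSeq (GRCm38.p6), plus strand, with the motif matches in capitals. The stretch for *Nppb* is chr4:147985792-147985821, within the window from 250 bases before to 50 bases after its RefSeq start at 147985900. The deposited table sets the start of the gene further upstream, so that the 30 bases printed fall inside its first exon there. The stretch for *Nppa* is chr4:148000472-148000721, the 250 bases before its start.
Nppb: gcaGGAATGcagctGATAAatcagaGATAA
Nppa: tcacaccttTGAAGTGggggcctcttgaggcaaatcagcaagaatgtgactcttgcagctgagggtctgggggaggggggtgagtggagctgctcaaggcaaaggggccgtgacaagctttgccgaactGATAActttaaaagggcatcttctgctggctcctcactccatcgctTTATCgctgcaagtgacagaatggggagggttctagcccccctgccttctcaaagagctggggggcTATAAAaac

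Both strands of the part of each window before the start were searched for 6 motifs. The bases after the start were not searched. Matches and percentages given here for a window refer to the searched part. GATAA, the core that GATA factors bind, occurred 94 and 83 bases before the start of *Nppb* and 121 and 75 bases before that of *Nppa*, the last on the minus strand, so that it is printed as TTATC. It was in 22.6% of 32841 promoter windows of the same length. GGAATG, a TEAD motif, lay 105 bases before the start of *Nppb*, had no match in the *Nppa* window and was in 12.6% of all windows. TNAAGTG, an NKX2-5 motif, lay 241 bases before the start of *Nppa*, had no match in the *Nppb* window and was in 10.1% of all. TATAAA was in both windows, 31 (outside the stretch printed) and 9 bases before the starts of *Nppb* and *Nppa*, and in 12.4% of all. The strict CArG box of serum response factor, CC, 6 bases of A or T and GG, was in 1.47% of all windows. It and TGANTCA of AP-1 (in 6.75%) had no match in either window. Near matches that differ in a base were not searched for. A match describes these letters only.

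The genes around the pair were read beside *Nppb*. Within 250 kb of the span from *Nppb* to *Nppa*, 20 other genes were listed, and 0 passed the limma test (5 at an unadjusted p under 0.05, 0 in limma-voom). Of all genes, 3.78% passed and 28.1% had an unadjusted p under 0.05. The median log2 change of the 20 neighbours was -0.11, beside 0.04 over all genes and -0.08 over those whose mean reached 100. The nearest neighbour upstream, *2510039O18Rik*, had 238, 212 and 217 normalized counts in the DMSO libraries and 175, 159 and 181 in αKG, lower in every αKG library (log2 change -0.37 ± 0.11, limma adjusted p = 0.0742). The nearest coding gene downstream, the chloride transporter gene *Clcn6*, had 146, 143 and 132 in DMSO and 156, 135 and 148 in αKG, and these overlapped (0.06 ± 0.12, limma adjusted p = 0.764). *Mfn2*, which encodes a mitochondrial fusion protein, was at -0.17 ± 0.06 (limma adjusted p = 0.125). With all libraries, *Nppb* was the only gene of the locus with a call. At the share called over all genes, few if any calls would fall among 20 genes. These counts therefore do not show that the difference is confined to *Nppb*. When αKG replicate 3 was left out, 3 of the 20 neighbours were called higher and 4 lower, among them *2510039O18Rik* (-0.41 ± 0.08, limma adjusted p = 0.0121) and *Mfn2* (-0.24 ± 0.03, limma adjusted p = 0.00353), and *Nppa* was called too. That fit called 19.3% of all genes higher and 17.9% lower.

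**Figure D3:**
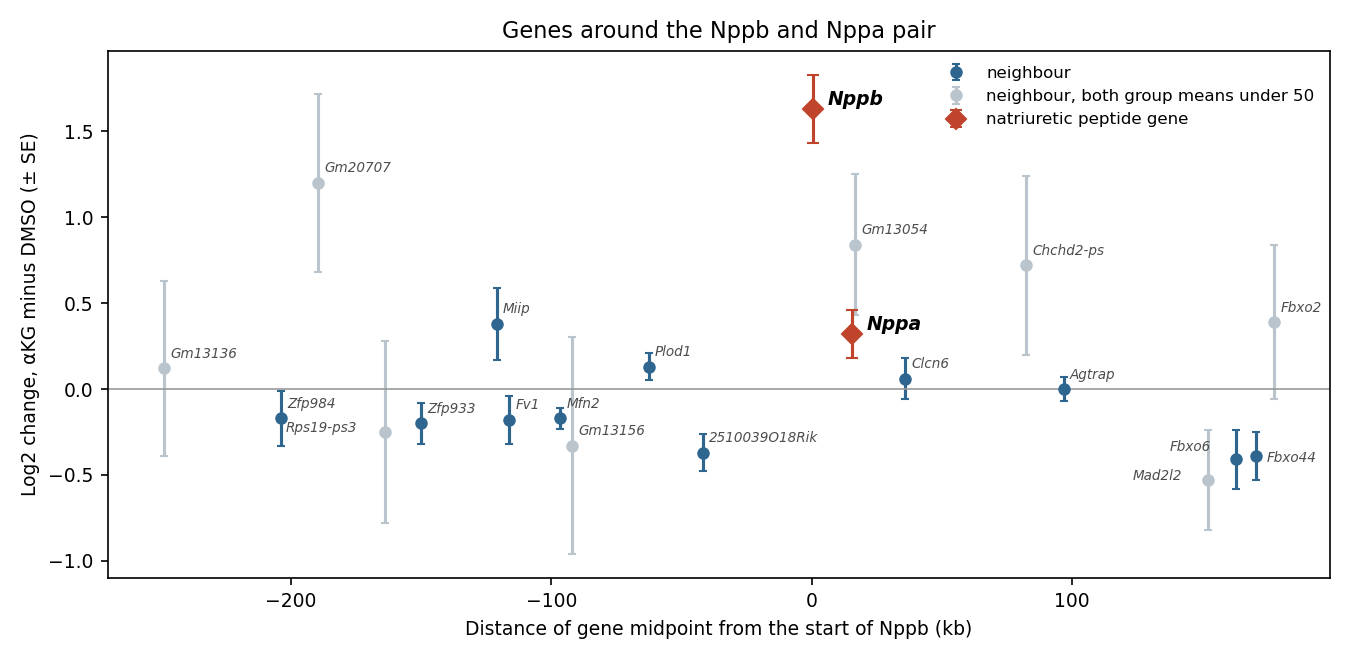
Fitted log2 change between αKG and DMSO (vertical axis, ± SE) against the distance of each gene's midpoint from the start of *Nppb* in kilobases. Red diamonds are *Nppb* (1.63) and *Nppa* (0.32), blue points neighbours and grey points neighbours whose group means were both under 50 normalized counts. The neighbours plotted within 100 kb with higher counts lie between -0.37 and 0.13.

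The proteases came next. *Corin* (ENSMUSG00000005220, chromosome 5, 72300025 to 72504473, minus strand) encodes the membrane protease of CMs that converts the atrial peptide precursor. It had 1241, 1074 and 1018 normalized counts in the DMSO libraries and 970, 893 and 939 in αKG. Each αKG library was below each DMSO library, and αKG replicate 3 was as low as the others. The means were 1111 ± 116 and 934 ± 38.7 (SD, n = 3 each), a log2 change of -0.25 ± 0.08 that missed the threshold (limma adjusted p = 0.0997, unadjusted p = 0.0137) and was called in 0 of 15 alternatives, where its adjusted p ranged from 0.0665 to 0.339, the lowest without αKG replicate 3. The αKG libraries lay wholly below DMSO in 26.9% of the genes whose mean reached 100.

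*Furin* (ENSMUSG00000030530, chromosome 7, 80388585 to 80405436, minus strand) encodes the convertase that cuts the B-type and C-type precursors. It had 729, 732 and 715 normalized counts in the DMSO libraries and 693, 677 and 794 in αKG. αKG replicates 1 and 2 were below the DMSO libraries and αKG replicate 3 was above them. The means, 725.3 ± 9.07 and 721.3 ± 63.4 (SD, n = 3 each), gave a log2 change of -0.01 ± 0.08 (limma adjusted p = 0.936), whose sign turned with quantile normalization and without αKG replicate 1 or 2. It was -0.08 ± 0.04 without αKG replicate 3 (limma adjusted p = 0.156).

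Among the receptors that make cyclic GMP, *Npr2* was the more abundant. *Npr2* (ENSMUSG00000028469, chromosome 4, 43631935 to 43651244, plus strand) had 195, 189 and 209 normalized counts in the DMSO libraries and 286, 249 and 183 in αKG. αKG replicates 1 and 2 were above DMSO and αKG replicate 3 was below it. The log2 change was 0.25 ± 0.15 (limma adjusted p = 0.307), and 0.43 ± 0.09 without αKG replicate 3 (limma adjusted p = 0.0111).

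*Npr1* (ENSMUSG00000027931, chromosome 3, 90450591 to 90465866, minus strand), the receptor gene for the atrial and B-type peptides, was the lowest of the 7 genes. It had 11, 8 and 10 normalized counts in the DMSO libraries and 4, 4 and 8 in αKG. Each αKG library was at or below the lowest DMSO library, and αKG replicate 3 equalled DMSO replicate 2. An estimated 31 reads over the 3 DMSO libraries (95% Poisson interval 21.1 to 44.0) stood against 17 over the 3 αKG libraries (9.9 to 27.2), and these overlapping intervals cover counting error only. The log2 change was -0.80 ± 0.40 (limma adjusted p = 0.22), and -1.08 ± 0.31 without αKG replicate 3 (limma adjusted p = 0.034).

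*Npr3* (ENSMUSG00000022206, chromosome 15, 11839896 to 11907287, minus strand) encodes the clearance receptor, which marks the endocardium in the developing heart. It had 295, 322 and 295 normalized counts in the DMSO libraries and 495, 520 and 291 in αKG. αKG replicates 1 and 2 were far above the DMSO libraries, and αKG replicate 3 was below the lowest of them. The means were 304 ± 15.6 and 435.3 ± 126 (SD, n = 3 each), a log2 change of 0.47 ± 0.19 (limma adjusted p = 0.146). Without αKG replicate 3 the change was 0.74 ± 0.06 (limma adjusted p = 0.000874; 0.000874 to 0.473 over the 15 alternatives). In the pattern over libraries *Npr3* was therefore like *Npr2* and *Nppa*, and unlike *Nppb*.

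The clearance receptor outnumbered *Npr1* throughout. In normalized counts, *Npr3* was 26.8, 40.2 and 29.5 times as high as *Npr1* in DMSO and 124, 130 and 36.4 times in αKG, counts that were not divided by length. The shift in their log2 difference was 1.27 and the groups overlapped (exact permutation p = 0.20, two-sided).

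Markers of other cells were read beside these genes. Of 12 endothelial markers, 9 were called lower and 0 higher, and their sum was 2361 to 2482 normalized counts in the DMSO libraries and 1604 to 1746 in αKG, lower in all 3 αKG libraries. In limma-voom 4 of the 12 were called, and without αKG replicate 3 again 9 were lower, with 2 higher. With any 1 of the other libraries left out 0 of the 12 were called by limma, in fits that called 0 to 152 genes in all. *Flt1*, *Tek* and *Cldn5* were not called, *Cldn5* being at 0 in DMSO replicate 2 and αKG replicate 1. *Flt1* had 485, 510 and 499 in DMSO and 733, 719 and 411 in αKG, where it was the largest part of the sum. *Tek*, like *Flt1*, was above DMSO in αKG replicates 1 and 2 and below it in αKG replicate 3. The median of the 12 markers was at -1.01, -1.15 and -0.58 in αKG replicates 1 to 3, so the sum understates the fall of most markers in αKG replicates 1 and 2. Relative to this sum, *Npr3* was 1.01 higher in αKG on the log2 scale, with no overlap (exact permutation p = 0.10). *Npr1* was at a difference of -0.26, with overlap (exact permutation p = 0.40). With the mean of the log2 markers in place of their sum, chosen after seeing the data, *Npr3* was at 1.24 and *Npr1* at -0.03. Of 9 fibroblast and 9 epicardial markers 0 were called (5 and 3 at an unadjusted limma p under 0.05, 0 of each in limma-voom). Without αKG replicate 3, 7 and 9 of them were called higher, in a fit that called 19.3% of all genes higher. The sums of these markers were 3609 to 3744 and 503 to 562 in DMSO, and up to 8077 and 1192 in αKG, but in αKG replicate 3 both were near the DMSO level, the epicardial sum mostly through *Tbx18*. *Nppa*, *Npr2* and *Npr3* were likewise higher in αKG replicates 1 and 2 and near or below DMSO in αKG replicate 3. This pattern is not particular to these genes or markers, since αKG replicate 3 was the αKG library closest to DMSO over all genes. Of 8 smooth muscle and pericyte markers 2 were called higher, and 4 without αKG replicate 3 (sum 2205 to 2349 in DMSO and 2606 to 3372 in αKG), and 4 listed macrophage markers summed to 11 to 31 normalized counts in every library. The part of the other cell types in the receptor levels was not tested.

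**Figure D4:**
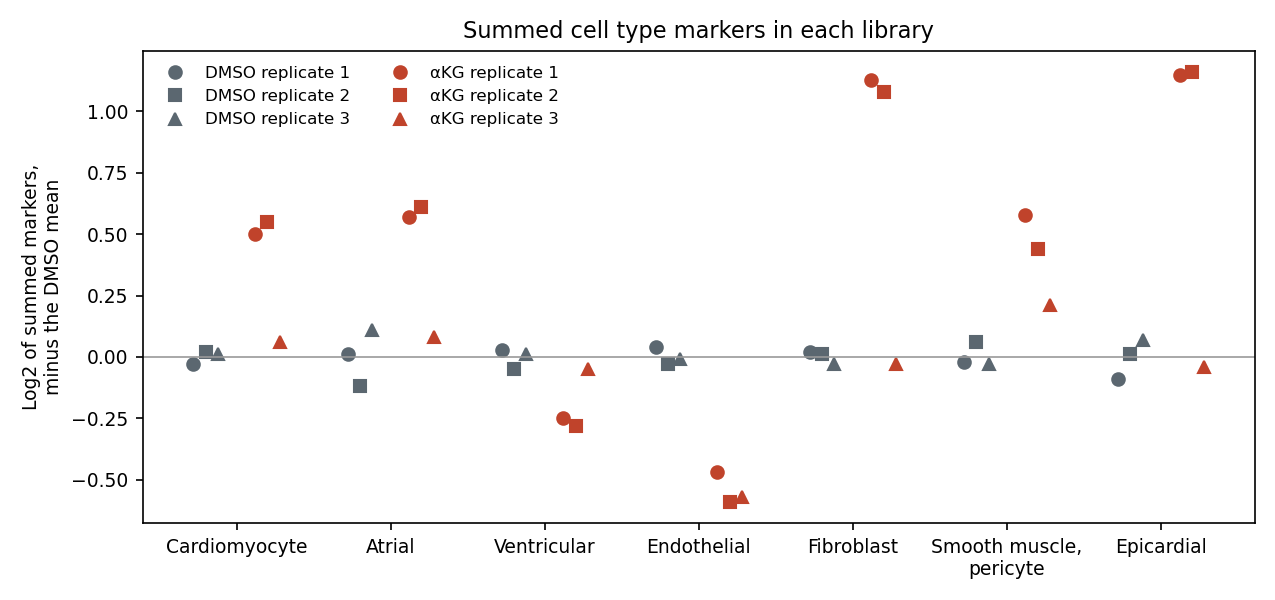
Log2 of the summed normalized counts of 7 marker lists in each library, minus the DMSO mean (vertical axis). Grey points are DMSO and red points αKG libraries, 3 each. Summed endothelial markers are at -0.47, -0.59 and -0.57 in αKG replicates 1 to 3 (median of the markers, not plotted, -1.01, -1.15 and -0.58). Fibroblast markers are at 1.13, 1.08 and -0.03.

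The CM markers gave the ligands and *Corin* a second reference. Of 10 CM markers 1 was called, the muscle LIM protein gene *Csrp3*, which rose; without αKG replicate 3, 5 were called higher. Relative to the summed CM markers, *Nppb* was 1.26 higher in αKG on the log2 scale and *Corin* was at a difference of -0.62, both with no overlap (exact permutation p = 0.10 for each). The difference of *Corin* was -0.23 with quantile normalization and -0.38 with the mean of the log2 markers in place of their sum. *Nppa* differed by -0.05, with overlap (exact permutation p = 0.60), and this turned to 0.37 and 0.19 in the same alternatives. Of 6 atrial markers 0 were called and 2 had an unadjusted limma p under 0.05 (sum 343 to 401 in DMSO and 392 to 569 in αKG; 2 called higher without αKG replicate 3), with *Kcna5* and *Bmp10* at 0 to 6 normalized counts in every library. Of 4 ventricular markers 0 were called and 2 had an unadjusted limma p under 0.05 (sum 2662 to 2818 and 2267 to 2663; 2 called lower without αKG replicate 3). Most of this sum came from *Myl2* and *Myl3*, at log2 changes of 0.00 and 0.08. *Irx4* had 616, 592 and 615 in DMSO and 277, 276 and 551 in αKG (-0.80 ± 0.22, limma adjusted p = 0.0715). *Hey2* had 399, 340 and 332 in DMSO and 164, 136 and 338 in αKG (-0.86 ± 0.28, limma adjusted p = 0.0928).

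Per kilobase of exon, the order of the genes in DMSO was *Nppa* (592 ± 44.9 normalized counts per kb, SD, n = 3), *Corin* (206 ± 21.5), *Nppb* (122 ± 30.3), *Furin* (79.0 ± 0.989), *Npr2* (42.4 ± 2.2), *Npr3* (32.4 ± 1.66) and *Npr1* (2.02 ± 0.319), and no neighbours in this order overlapped. In αKG *Nppb*, at 323 to 457 per kb, lay above *Corin*, at 165 to 180, where in DMSO it had been below, at 87.1 to 141 against 189 to 230. *Npr2* (39.2 to 61.3) and *Npr3* (31.0 to 55.4) overlapped in αKG. *Nppa* stayed the highest, at 576 to 882 per kb.

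Genes that act before or after the receptors were taken from 5 lists with 76 listed genes, of which 3 were called, 1 higher and 2 lower. That is near the share of all genes called, 3.78%. The fit without αKG replicate 3, whose counts are given for each list, called 19.3% of all genes higher and 17.9% lower. Of 6 genes for cyclic GMP synthesis outside the peptide receptors, 1 was called higher and 0 lower, and 2 higher and 1 lower without αKG replicate 3. The median log2 change, 0.21, turned to -0.14 with quantile normalization and to -0.16 without αKG replicate 1. It was *Gucy1b1*, the β subunit of the nitric oxide receptor guanylyl cyclase, with 138, 113 and 117 normalized counts in the DMSO libraries and 217, 211 and 202 in αKG. All αKG libraries were above all DMSO libraries (log2 change 0.78 ± 0.12, limma adjusted p = 0.0159). Its partner *Gucy1a1*, chosen after its values were seen, had 111, 106 and 108 in DMSO and 190, 159 and 106 in αKG (0.44 ± 0.19, limma adjusted p = 0.174; 0.68 ± 0.10 and 0.00423 without αKG replicate 3). The nitric oxide synthase of endothelium, *Nos3*, had 39, 60 and 40 in DMSO and 24, 15 and 32 in αKG (-0.97 ± 0.31, limma adjusted p = 0.0911; -1.21 ± 0.28 and 0.0187 without αKG replicate 3).

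Of 22 targets, transporters and phosphodiesterases of cyclic GMP, 0 were called higher and 1 lower (median 0.24), and 5 higher and 5 lower without αKG replicate 3. *Pde1c*, a calcium-dependent phosphodiesterase that degrades cyclic AMP and cyclic GMP, fell from 1305, 1340 and 1255 normalized counts to 759, 825 and 1076. All αKG libraries were below DMSO, with αKG replicate 3 the closest to it (log2 change -0.57 ± 0.11, limma adjusted p = 0.0362). *Abcc5*, which exports cyclic nucleotides, had 275, 323 and 297 in DMSO and 710, 647 and 316 in αKG, and the groups overlapped (0.82 ± 0.25, limma adjusted p = 0.0853; 1.18 ± 0.08 and 0.000526 without αKG replicate 3).

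Of 10 other peptidases and related genes 0 were called (4 at an unadjusted limma p under 0.05, 0 in limma-voom, median 0.44). Without overlap, 3 lay above DMSO, *Ostn* at 0 to 2 normalized counts among them, and 1 below, against 13.7% and 14.6% of all genes. Leaving out αKG replicate 3 gave 4 called higher and 1 lower. *Mme*, the gene of neprilysin, which degrades natriuretic peptides, had 15, 13 and 13 normalized counts in the DMSO libraries and 29, 32 and 23 in αKG. Every αKG library was above every DMSO library (log2 change 0.97 ± 0.27, limma adjusted p = 0.0692; 1.10 ± 0.21 and 0.00914 without αKG replicate 3). *Ostn*, whose product is a ligand of the clearance receptor, had 0 in each DMSO library and 2, 1 and 2 in αKG, too few for a fold. *Pcsk6*, the convertase that activates corin, was chosen after its values were seen and had 30, 31 and 27 in DMSO and 74, 66 and 29 in αKG (0.81 ± 0.33, limma adjusted p = 0.147; 1.23 ± 0.15 and 0.00226 without αKG replicate 3).

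Of 26 transcription regulators of the peptide genes, 0 were called higher and 1 lower. The median was -0.19, with 20 of 26 below 0 and 12 wholly below DMSO. Of all genes 14.6% lay wholly below DMSO, but of those whose mean reached 100, as that of most of these regulators did, 26.9% did so, with a median of -0.08 and 5190 of 8295 below 0. *Tbx3*, which represses *Nppa* in the conduction system, fell from 117, 108 and 104 normalized counts to 60, 65 and 79 (log2 change -0.69 ± 0.16, limma adjusted p = 0.0451). *Tbx5*, an activator of *Nppa*, had 668, 642 and 637 in DMSO and 456, 441 and 583 in αKG, lower in all 3 libraries (-0.41 ± 0.11, limma adjusted p = 0.0609; -0.53 ± 0.05 and 0.000953 without αKG replicate 3). The factors of the motifs above were read after their values were seen. *Gata4* was at -0.24 ± 0.10, *Nkx2-5* at -0.41 ± 0.18 and *Tead1* at 0.00 ± 0.06 (limma adjusted p = 0.167, 0.172 and 0.998). *Gata6* was at -0.47 ± 0.14, *Tead4* at 0.36 ± 0.24 and *Srf*, of the CArG box, at -0.39 ± 0.16 (limma adjusted p = 0.0843, 0.346 and 0.154). With αKG replicate 3 left out, *Gata4* was at -0.38 ± 0.04 and *Nkx2-5* at -0.66 ± 0.06 (limma adjusted p = 0.0013 and 0.00119). In that fit *Gata6* was at -0.66 ± 0.05 and *Srf* at -0.61 ± 0.07 (limma adjusted p = 0.000525 and 0.00181), and *Tead4* was not called. Without αKG replicate 3, 13 of the 26 were called lower and 2 higher, in a fit that called 17.9% of all genes lower. *Gucy1b1*, *Pde1c* and *Tbx3* were all called in that fit (limma adjusted p = 0.00278, 0.000559 and 0.00287), but 0 of the 3 with replicate 1 or 2 of αKG or replicate 2 or 3 of DMSO left out, without the variance trend, with the replicate block or with DMSO replicates 2 and 3 averaged.

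**Figure D5:**
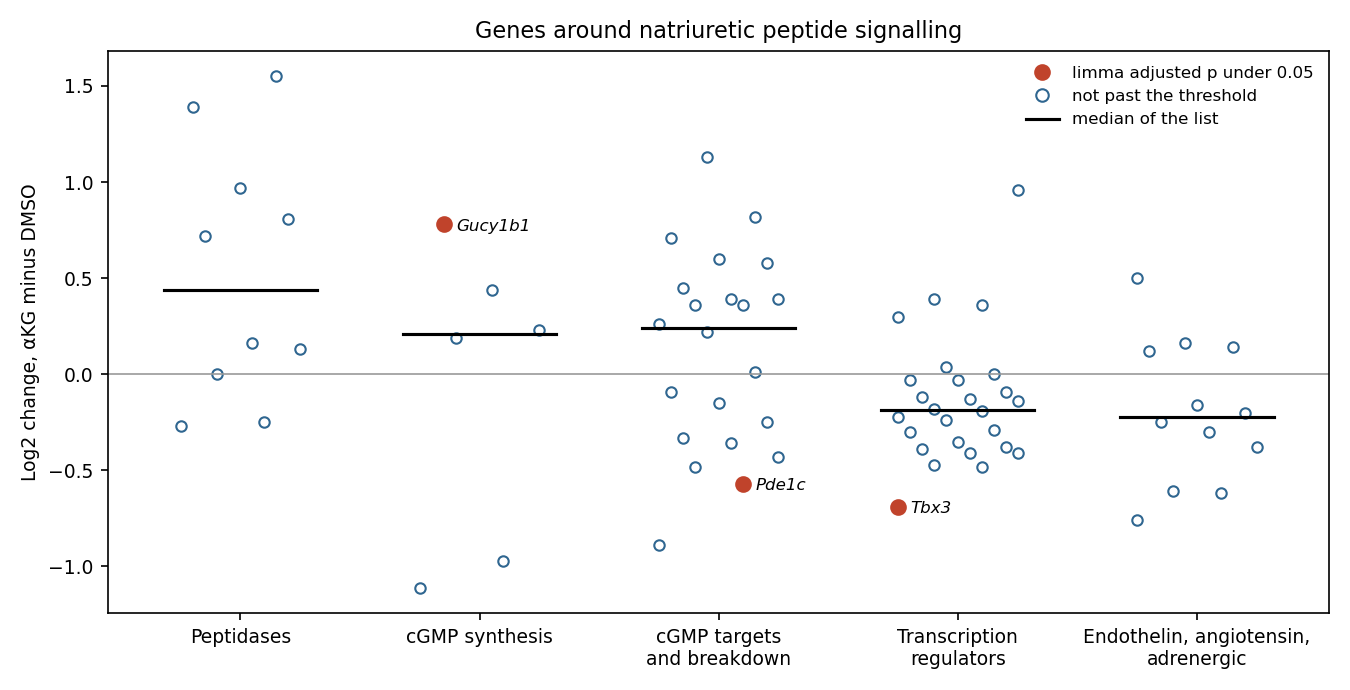
Fitted log2 change between αKG and DMSO (vertical axis) for the genes of 5 lists, 1 point per gene, spread sideways for legibility. Filled red points are the 3 genes with a limma adjusted p under 0.05 (*Gucy1b1* 0.78, *Pde1c* -0.57, *Tbx3* -0.69), open points the others, and black bars list medians of 0.44, 0.21, 0.24, -0.19 and -0.22 from left to right.

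Finally, among genes whose mean reached 100, those most like each gene were found by the root mean square, over the 6 libraries, of the difference between their log2 profiles, each set to its own DMSO mean. This is a description of shared libraries and carries no test. For *Nppb* they were *Cavin4*, a muscle caveolar protein gene, *Xirp2*, an actin-binding protein gene, and *Ucp2*, a mitochondrial carrier gene, at 0.296, 0.301 and 0.311 log2 units. *Cavin4* had 101, 120 and 135 normalized counts in the DMSO libraries and 271, 343 and 248 in αKG. *Xirp2* had 1243, 1798 and 1617 in DMSO and 5817, 6504 and 3182 in αKG, and *Ucp2* 82, 98 and 84 and then 216, 222 and 258. These 3 were higher in every αKG library, yet no gene came closer to *Nppb*. By contrast *Nppa*, *Npr2*, *Npr3*, *Corin* and *Furin* each had a nearest gene within 0.017 to 0.045. The distance was not scaled to the log2 change, which was 1.63 for *Nppb* and -0.25 to 0.47 for the others. The contrast therefore does not separate the shape of a profile from its size.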

How the data were processed

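Total RNA of 6 libraries, 3 per group, was sequenced. Per the study's methods and the submitters' processing notes, the authors trimmed reads (Trimmomatic 0.39), aligned them to mm10 (STAR 2.7.10a), counted reads in exons (featureCounts 2.0.3), leaving out reads of several genes, and used DESeq2 (1.30.1). The deposited values are treated as a score: the authors had divided counts by a factor per library and rounded. Reads were estimated from the spacing of low values, for which 1 read was worth 0.9260 to 1.1188 units, and the estimate was tested on simulated data. Reads carry no molecular identifiers. Intervals cover counting error only.

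All 6 libraries and 20066 genes entered 1 limma model (3.58.1, R 4.3.3) on log2(value + 1) with a variance trend and no filter. The pseudocount understates changes of low genes. Single values were compared by two-sided exact permutation tests. DMSO replicates 2 and 3 differed by little more than counting noise (chi-square 1.02 per gene, but 17 genes beyond it) and were kept as separate samples, their average being an alternative. Exon lengths came from GENCODE M21 (GRCm38), in which 99% of genes had identical positions. Of the promoter windows, *Nppa* and *Nppb* were matched by symbol. The members and lists were chosen with earlier results of these data known. Named genes were the members, called list genes or otherwise those with the smallest p, neighbours within 250 kb, and the 3 genes most alike. Alternatives covered pseudocount, filter, scaling, variance model, replicate block and each library left out. Protein sequences were not used here, and 1 neighbouring gene is not reported by itself here.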

Additional observations from a re-analysis of the deposited data

How the results depend on the processing

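Of 338 values recomputed under an alternative, 275 kept their direction and side of the threshold or moved little. The 759 genes called became 27 in limma without the variance trend, 46 with the replicate block, 19 with DMSO replicates 2 and 3 averaged, 362 in limma-voom on estimated reads, 5648 with no adjustment and 0 to 7466 without 1 library (7466 without αKG replicate 3; 0 without αKG replicate 1 or 2). Of the members, the 1 called became 0 without the trend, 0 with the averaged DMSO libraries, 4 with no adjustment (*Nppa*, *Nppb*, *Npr3* and *Corin*, at 0.32, 1.63, 0.47 and -0.25) and 0 to 5 without 1 library. The 3 pathway genes called became 0, 0 and 0 without the trend, with the block and with the average, 33 with no adjustment and 0 to 38 without 1 library. *Nppb* lost its call without the trend (1.63, limma adjusted p = 0.104) and with the average (1.74, limma adjusted p = 0.0587), and kept it in 9 of 15 alternatives, with changes of 1.41 to 1.75 over all 15, 1.48 to 1.75 without 1 library where the call was lost. Without 1 library *Npr1* ranged from -1.08 to -0.66 (-0.37 with a pseudocount of 10), *Npr2* from 0.11 to 0.43, *Nppa* from 0.19 to 0.50 and *Npr3* from 0.32 to 0.74, the low ends of *Nppa* and *Npr3* without αKG replicate 2, and each was called without αKG replicate 3. *Furin* turned to 0.01 with quantile normalization and to 0.02 and 0.03 without αKG replicates 1 and 2. *Nppa* relative to CM markers turned to 0.37 with quantile normalization and, in an alternative chosen after seeing the data, to 0.19 with the mean of log2 markers, and *Npr1* relative to endothelial markers to 0.18 with a pseudocount of 10. List medians moved with a pseudocount of 10 (peptidases 0.14, endothelin, angiotensin and adrenergic genes -0.12, neighbours -0.06), with quantile normalization (cyclic GMP synthesis, turned to -0.14, cyclic GMP targets 0.01, endothelin list -0.31, neighbours -0.19), with a mean of at least 10 (neighbours -0.17), with the average (endothelin list -0.28) and without 1 library (cyclic GMP synthesis -0.16 to 0.44, cyclic GMP targets 0.12 to 0.31, endothelin list -0.34 to -0.08, neighbours -0.10 to -0.03). Apart from the fits with fewer libraries, the cause was not tested. Deviations from the group means correlated at -0.074, 0.136 and 0.002 between same-numbered libraries. DMSO replicates 2 and 3 differed by little more than counting noise, so these correlations cannot tell whether cultures were paired. The labels name no pairing, and the block kept the call of *Nppb*. The alternatives with DESeq2, edgeR and TMM need raw counts and were not run. *Npr1*, at 4 to 11 normalized counts, is limited by depth.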

Other observations

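Ligand, enzyme and receptor genes of endothelin, angiotensin, adrenergic and adrenomedullin signalling were read as a further list. Of 12 listed, 0 passed the limma test (3 at an unadjusted p under 0.05, 0 in limma-voom), and their median log2 change was -0.22, beside 0.04 over all genes. Of all genes, 3.78% passed and 28.1% had an unadjusted p under 0.05. Without αKG replicate 3, 3 of the 12 were called higher and 2 lower, in a fit that called 19.3% of all genes higher and 17.9% lower. The endothelin receptor genes had the smallest p. *Ednra* had 472, 486 and 480 normalized counts in the DMSO libraries and 261, 275 and 420 in αKG, lower in all 3 αKG libraries (-0.62 ± 0.16, limma adjusted p = 0.0583; -0.84 ± 0.05 and 0.000408 without αKG replicate 3). *Ednrb* had 218, 181 and 182 in DMSO and 81, 101 and 179 in αKG, also lower in all 3, though αKG replicate 3 was only just below DMSO (-0.76 ± 0.25, limma adjusted p = 0.0963; -1.08 ± 0.13 and 0.00225 without αKG replicate 3).

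The genes closest in profile to the other members differed from them by little. For *Nppa* they were *Mipol1*, *Arap2* and *Ccdc191* (root mean square difference 0.029, 0.039 and 0.047 log2 units over 6 libraries). For *Npr2* they were *Snrnp48*, *Tspyl2* and *Abcc4*, the last an exporter of cyclic nucleotides (0.031, 0.032 and 0.035). For *Npr3* they were *Maml2*, *Zcchc7* and *Irs1* (0.045, 0.050 and 0.051). For *Corin* they were *Slc39a13*, *Tbc1d9b* and *Atp13a2* (0.044, 0.044 and 0.048), and for *Furin* *B230219D22Rik*, *Arhgef10l* and *Ank1* (0.017, 0.022 and 0.024).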
